A study of Mus musculus with 45 samples.

Results

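Granulocyte-derived induced pluripotent stem cell (iPSC) lines of 2 mice were compared at passage 4, over all genes measured. The arrays were chosen by their labels alone, as 3 clones from granulocytes of mouse 1 and 3 clones from granulocytes of mouse 2. They are 6 of the 45 arrays of the study and 6 of the 33 arrays in the table that holds passages 4, 6 and 16. Both groups share the cell of origin, the passage, and culture with serum and LIF on irradiated embryonic fibroblast feeders, which were removed by preplating before RNA was taken, and they differ in the animal. All lines came from a secondary reprogramming system. Further groups of 3 clones served as yardsticks. These were lines of mouse 2 from tail tip fibroblasts, B cells and T cells at passage 4, and granulocyte lines of both mice at passage 16. The labels give no strain, age or sex of the mice and no date or batch. With 1 mouse on each side, a p-value measures how clones vary and says nothing of how animals vary, and mouse, derivation and any batch cannot be told apart.

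In a secondary system, somatic cells already carry inducible reprogramming factors, so that lines from different cell types can be derived in the same way. Granulocytes are short-lived myeloid white blood cells whose identity rests on granule proteins and on C/EBP transcription factors, and both programmes are silenced when a cell becomes pluripotent. Cultures of pluripotent cells can also hold cells that leave the pluripotent state, and primitive or visceral endoderm, which lines the early embryo, is a common product. The comparison asks how far lines of 1 origin and passage differ when they come from separate mice, set beside the differences between origins.

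The lines of both mice had high values for pluripotency genes and low values for granulocyte genes. On the log2 scale of the deposited values, Pou5f1, which encodes Oct4, was at 11.66, 11.48 and 11.47 in clones 1, 2 and 3 of mouse 1 and at 11.40, 11.27 and 11.22 in those of mouse 2. Nanog was at 12.02, 12.15 and 12.26 against 12.21, 12.28 and 11.98, so its values overlapped. Mpo, which encodes the myeloperoxidase of granulocyte granules, lay between 3.24 and 3.62 in all 6 arrays, near the bottom of the range of the table (2.261 to 14.081). Over 26 pluripotency genes the mean was 10.81 in mouse 1 and 10.87 in mouse 2. Over 27 granulocyte genes it was 4.02 and 3.99. The mean correlation of an array with the others of its group was 0.9926, 0.9945 and 0.9921 in mouse 1 and 0.9954, 0.9959 and 0.9946 in mouse 2. Over the 33 arrays it was lowest, at 0.9222, in clone 3 of the mouse 2 granulocyte lines at passage 16, and the other 32 lay between 0.9564 and 0.9959. Results that rest on that array are given with and without it.

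At passage 4, 913 of 11807 genes differed between the mice, or 7.73% of the genes tested (limma, Benjamini-Hochberg adjusted p under 0.05, named "called" from here on). Of these, 523 (4.43%) were higher in mouse 1 and 390 (3.3%) lower, and 325 of the 913 were more than 2-fold apart. A test against a difference of 2-fold itself called 10 genes. At an unadjusted p under 0.05 there were 2342 genes. The values of the mice did not overlap for 4640 genes (39.3%), and 906 genes (7.67%) were both called and without overlap. For 9652 genes (81.7%), the 95% confidence interval of the difference lay within 2-fold in either direction, so most genes were bounded to a small difference. Leaving out 1 clone at a time gave 707 calls without clone 1 of mouse 1, 515 without clone 2 and 436 without clone 3. It gave 570, 479 and 501 without clones 1, 2 and 3 of mouse 2. With the passage 16 array of low correlation left out of the fit, which lowers the estimated spread, 1466 genes (12.4%) were called, and all 913 were among them.

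The difference between the mice was at the low end of the differences between origins. Among the 4 origins of mouse 2 at passage 4, the pairs with called genes ranged from 993 (8.41%) for B cell against granulocyte lines to 3085 (26.1%) for T cell against granulocyte lines. Fibroblast lines gave 1506 calls (12.8%) against T cell lines, 2229 (18.9%) against B cell lines and 2909 (24.6%) against granulocyte lines, and B cell against T cell lines gave 1791 (15.2%). The 3 pairs with granulocyte lines share the mouse 2 arrays with the comparison of the mice. The mice had fewer calls than all 6 pairs in 8 of 11 ways of fitting. The exceptions were the fit of the compared groups alone (2151 calls, with 2 pairs below), array weights (3726, with 3 pairs below) and a fibroblast covariate (750, with 3 pairs below). These counts were not tested against each other.

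**Figure D1:**
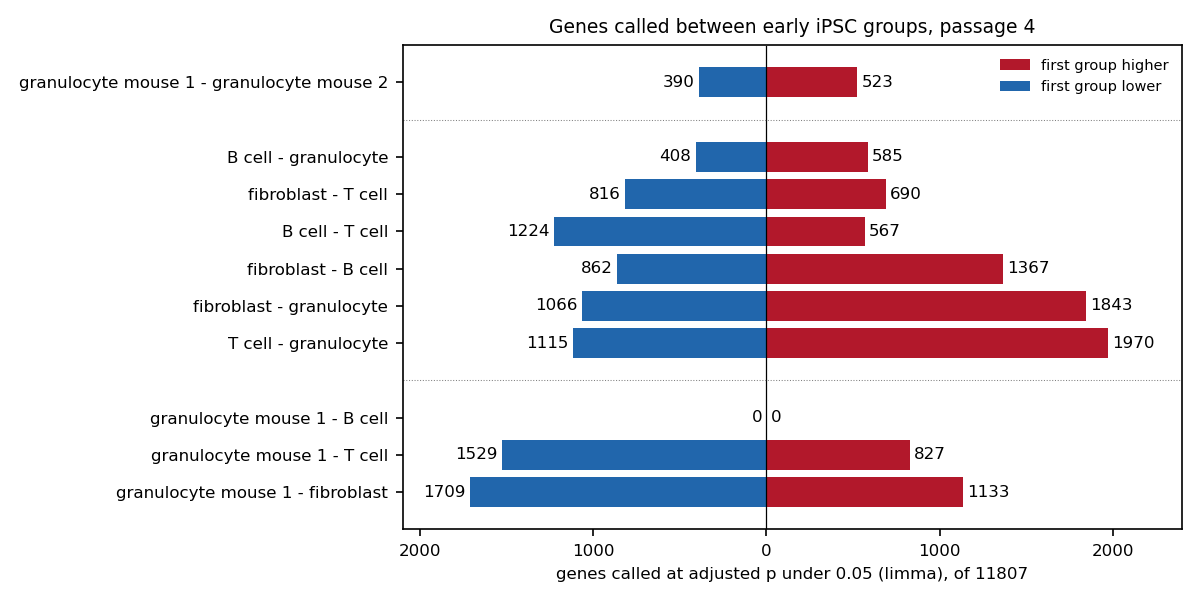
Genes called by limma at an adjusted p under 0.05 between groups of 3 passage 4 lines, with bars to the right for genes higher and to the left for genes lower in the group named first. The mice (523 higher, 390 lower) stand above the 6 pairs of origins of mouse 2, and mouse 1 granulocyte lines against the other origins of mouse 2 stand below, with 0 calls against B cell lines.

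Whole profiles gave the same order, and placed the mouse 1 granulocyte lines beside the B cell lines of mouse 2. Pearson's r over all genes averaged 0.9834 between granulocyte arrays of the mice, against 0.9931 within mouse 1 and 0.9953 within mouse 2. The separation, which is the mean of 1 minus r between groups less that within groups, was 0.0107 (exact permutation test over 10 splits, two-sided p = 0.1, the smallest that 3 against 3 arrays allow). The separation of B cell from granulocyte lines within mouse 2 was also 0.0107, and the other 5 pairs of origins lay between 0.0116 and 0.0245. Between mouse 1 granulocyte lines and mouse 2 B cell lines it was -0.0001 (exact permutation p = 1), with a mean r of 0.9928. Clones 2 and 3 of mouse 1 had their closest array among the B cell lines (r of 0.9968 and 0.9966), and clone 1 had it in clone 2 of its own group (0.9949). All 3 mouse 2 clones had it in their own group.

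In limma, 0 genes (0%) were called between mouse 1 granulocyte lines and mouse 2 B cell lines, a comparison added after this closeness was seen. At an unadjusted p under 0.05 there were 157 genes, and array weights called 7. The 95% interval lay within 2-fold for 11123 genes (94.2%). Against T cell and fibroblast lines of mouse 2, the same 3 mouse 1 arrays gave 2356 (20%) and 2842 (24.1%) calls. The arrays were not copies of each other. Eif2s3y, a translation factor gene on the Y chromosome, was at 8.02, 2.96 and 7.86 in the mouse 1 granulocyte clones and at 5.66, 10.31 and 3.85 in the B cell clones. The labels name the origin and the mouse of these lines and nothing that the pair shares beyond passage and culture. A shared derivation, a shared batch or an exchange of labels was not tested, and the 913 calls between the mice hold for the groups as labelled.

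**Figure D2:**
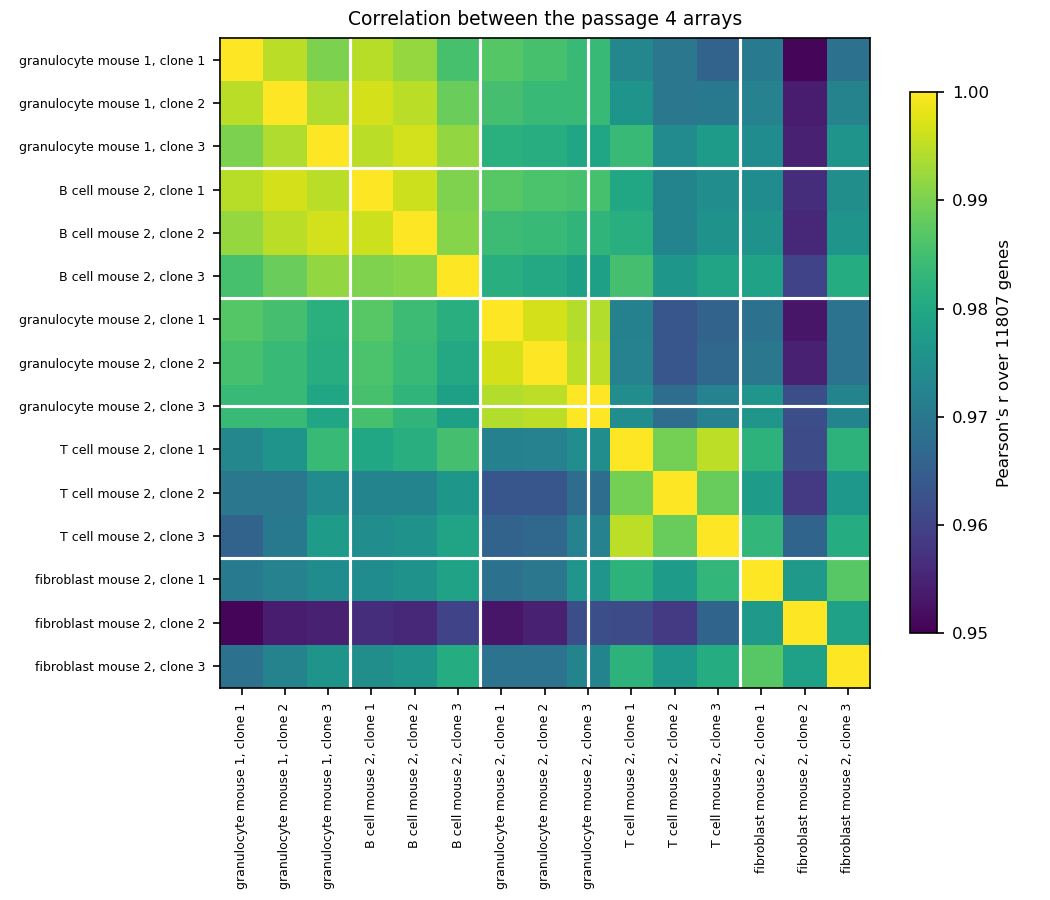
Pearson's r over 11807 genes between the 15 passage 4 arrays, 3 clones per group, on a colour scale from 0.95 to 1. The block of mouse 1 granulocyte and mouse 2 B cell arrays averages 0.9928, and the block of the granulocyte arrays of the mice averages 0.9834.

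The largest excess in mouse 1 was in Car4, Dab2 and Cubn. The leading genes of each direction were chosen among called genes whose values did not overlap between the mice. Their lack of overlap was thus fixed by the choice, and 39.3% of all genes had none. Car4, which encodes the membrane-anchored carbonic anhydrase IV, was at 8.59, 9.69 and 9.68 in mouse 1 and at 5.24, 4.84 and 5.75 in mouse 2. All mouse 1 clones were far above all mouse 2 clones, by 16.5-fold (log2 4.04 ± 0.61, SE, n = 3 clones per mouse, limma adjusted p = 0.00011). Car4 was also high in the B cell (mean 8.90) and T cell lines (8.66), so here mouse 2 granulocyte lines stood low. Dab2, which encodes an endocytic adaptor of visceral endoderm, was at 8.23, 10.25 and 9.55 against 6.03, 5.17 and 5.28, and was 14.5-fold higher (3.85 ± 0.76, limma adjusted p = 0.0018). Cubn, which encodes the endocytic receptor cubilin, was at 8.46, 10.32 and 9.74 against 6.07, 5.66 and 5.86, and was 12.5-fold higher (3.64 ± 0.65, limma adjusted p = 0.00072). In both genes clone 1 was the lowest of mouse 1 and clone 2 the highest.

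Amot, which encodes the Hippo pathway scaffold angiomotin, followed the same clone order with 9.28, 11.09 and 10.63 against 6.94, 6.66 and 7.02 (3.46 ± 0.50, limma adjusted p = 8e-05). The mean of its probe sets gave a difference of 1.39, which was still called (limma adjusted p = 0.00044). Prss12, which encodes the serine protease neurotrypsin, was at 5.32, 6.89 and 6.77 against 2.99, 3.39 and 3.47 (3.04 ± 0.36, limma adjusted p = 4.8e-06). Ctsh, the gene of the lysosomal protease cathepsin H, differed by 3.36 ± 0.57 and Tfec, a transcription factor gene of the Mitf family, by 2.54 ± 0.49. The remaining leading genes were Srgn (3.32 ± 0.85), the core protein of the proteoglycan serglycin, the trypsin inhibitor gene Spink1 (2.58 ± 0.69), AF067061 (2.68 ± 0.53) and Gm20767 (2.44 ± 0.51). Of the 12 largest, 10 stayed called in each of the 6 fits that left out 1 clone. Srgn did not without clones 2 or 3 of either mouse (largest adjusted p = 0.076, limma), and Spink1 was called only without clone 1 of mouse 1 (largest adjusted p = 0.1).

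Promoter letters of 2 endocytic genes and of Egr2 are shown as examples from the endoderm and immediate early genes described below. Each is the 250 bases before a transcription start, written 5′ to 3′ on the strand of the gene, from RefSeq on GRCm38.p6. Capitals mark GATAA, the core bound by GATA factors, searched on both strands in Dab2 and Cubn, and the CArG box, bound by serum response factor, in Egr2. Each gene was searched for 1 motif only. Where any window of a gene held its motif, the first such window is shown, so a match there was fixed by the choice. Dab2 lies at chr15:6299539-6299788 (+), Cubn at chr2:13491877-13492126 (-) and Egr2 at chr10:67537316-67537565 (+).
Dab2: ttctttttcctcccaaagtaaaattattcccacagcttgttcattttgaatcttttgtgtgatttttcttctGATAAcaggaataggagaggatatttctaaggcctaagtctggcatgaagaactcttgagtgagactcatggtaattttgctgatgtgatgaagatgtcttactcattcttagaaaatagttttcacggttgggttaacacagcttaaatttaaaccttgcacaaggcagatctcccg
Cubn: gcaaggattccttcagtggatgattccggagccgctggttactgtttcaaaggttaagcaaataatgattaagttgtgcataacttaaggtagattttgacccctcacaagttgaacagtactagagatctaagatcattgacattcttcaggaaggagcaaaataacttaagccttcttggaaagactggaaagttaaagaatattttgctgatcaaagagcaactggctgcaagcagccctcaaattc
Egr2: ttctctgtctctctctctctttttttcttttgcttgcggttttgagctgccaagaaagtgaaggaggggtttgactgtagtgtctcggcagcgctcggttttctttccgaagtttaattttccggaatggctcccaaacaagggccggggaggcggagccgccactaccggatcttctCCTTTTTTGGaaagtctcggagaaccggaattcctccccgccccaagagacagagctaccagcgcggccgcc
The Dab2 window holds 1 GATAA, 178 bases before the start, in 1 of the 2 windows listed for the gene, and the Cubn window holds none. The Egr2 window holds 1 CArG box, 72 bases before the start, and 4 of the 5 windows of the gene hold one. Of 27025 genes with windows, 25.5% had a GATAA and 1.62% a CArG box in at least 1 window. A match describes these letters and is not a measured binding site.

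Of 25 endoderm genes measured, 11 were called higher in mouse 1 and 1 lower, against 4.43% and 3.3% of all genes, and 22 of the 25 differences were above 0. The median difference was 1.25, against -0.02 over all genes. The list was drawn up with earlier results of these data known, so its direction is no independent evidence. Besides Dab2, Cubn and Spink1, the genes called higher were Hnf4a (2.40 ± 0.67), a master regulator of visceral endoderm and liver, Ttr (2.13 ± 0.35), which encodes the thyroid hormone carrier transthyretin, and Cited1 (2.04 ± 0.42), a transcription cofactor gene. The basement membrane collagen gene Col4a1 (1.92 ± 0.49), the parathyroid hormone receptor gene Pth1r (1.72 ± 0.43), the transcription factor genes Gata4 (1.71 ± 0.40) and Foxa1 (1.52 ± 0.27), and the apolipoprotein gene Apoa1 (1.58 ± 0.45) completed the 11. Thbd, which encodes thrombomodulin, was lower (-1.39 ± 0.37, limma adjusted p = 0.02). With the mean of the probe sets of a gene in place of the brightest, 10 were called higher and the median was 0.81. Hnf4a was then at 0.75 and lost its call (limma adjusted p = 0.07), Gata4 was at 1.13 and Ttr at 3.32.

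Not all endoderm genes passed the test. Gata6, Sox17, Sox7 and Foxa2, further transcription factor genes of this lineage, were at 0.85, 1.25, 0.92 and 0.69 (limma adjusted p from 0.15 to 0.42). The laminin gene Lama1 was at -0.12 with a 95% interval from -0.98 to 0.74. The clones of mouse 1 differed among themselves. Gata4 was at 6.38, 7.78 and 6.80 in mouse 1 and at 5.43, 5.30 and 5.08 in mouse 2, and the mean of the list was at 7.03, 7.94 and 7.62 against 6.39, 6.25 and 6.17. The number called higher was 11 without clone 1 of mouse 1, but 5 without clone 2 and 7 without clone 3. It was 8, 6 and 7 without clones 1, 2 and 3 of mouse 2. Dab2, Cubn, Ttr, Cited1 and Foxa1 were called in each of these 6 fits, Gata4 in all but that without clone 2 of mouse 1 (limma adjusted p = 0.072). Hnf4a and Apoa1 were called only without clone 1 of mouse 1 (largest limma adjusted p of 0.15 and 0.25), and Apoa1 also lost its call with the compared groups alone (0.055) and with the fibroblast covariate (0.069). Col4a1 lost its call without clone 2 of either mouse or clone 3 of mouse 2, Pth1r without clones 2 or 3 of mouse 1 or clone 2 of mouse 2, and Thbd without clones 2 or 3 of mouse 1 or clones 1 or 2 of mouse 2 (largest limma adjusted p of 0.082, 0.087 and 0.11).

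Mouse 2 granulocyte lines had the lowest mean level of the endoderm list among the passage 4 groups. No value of an RMA table is at 0, so absence of a marker cannot be read from it. B cell lines had a mean of the list of 7.39, T cell lines 6.46 and fibroblast lines 6.42. Thus mouse 1 granulocyte and B cell lines were the high groups, and mouse 2 granulocyte lines were close to T cell and fibroblast lines. The part of this level in the other calls was not tested. In bulk RNA, more cells of a type and more RNA per cell cannot be told apart. Of the 11 genes, 8 had a promoter window and 4 of these held a GATAA (Hnf4a, Dab2, Pth1r and Cited1), against 25.5% of all genes with windows. These counts were not tested.

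**Figure D3:**
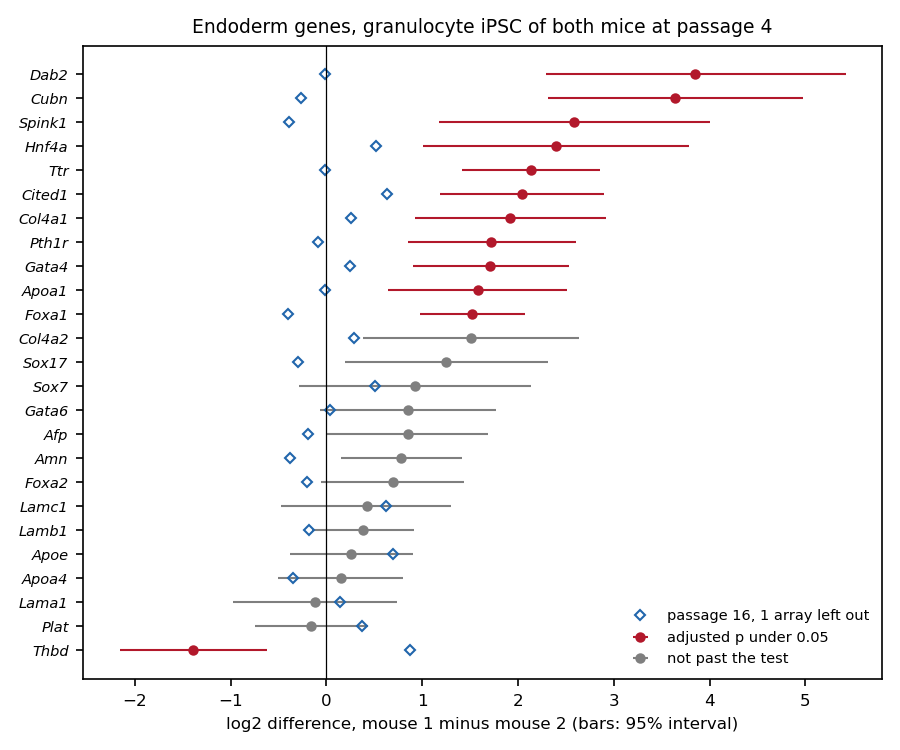
Log2 difference of mouse 1 minus mouse 2 granulocyte lines at passage 4 for the 25 endoderm genes, with 95% intervals from limma, filled points in red where the gene was called. Open diamonds give the difference at passage 16 without the array of low correlation. Dab2 at 3.85 and Cubn at 3.64 are the largest at passage 4, and at passage 16 they lie at -0.01 and -0.27.

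Of 17 immediate early genes, which serum and growth factors induce through ERK within minutes, 5 were called higher in mouse 1 and 0 lower, against 4.43% and 3.3% of all genes. Egr2, a zinc finger transcription factor gene, was at 8.67, 8.27 and 9.18 in mouse 1 and at 5.86, 5.74 and 6.17 in mouse 2 (2.79 ± 0.27, limma adjusted p = 1.2e-07). Fosb, which encodes a subunit of AP-1, was at 7.26, 6.75 and 8.09 against 5.49, 5.51 and 5.57 (1.85 ± 0.29, limma adjusted p = 0.00019). In both genes clone 3 was the highest and clone 2 the lowest of mouse 1, which is another order than that of the endoderm genes. Egr1 (0.92 ± 0.19), Fos (0.90 ± 0.23) and Junb (0.94 ± 0.27) were called as well, and the median of the list was 0.43. The count lay between 3 and 6 with 1 clone left out. It was 3 without clone 3 of either mouse. Fos was not called in those 2 fits, and Junb was called only without clone 1 of mouse 2 (largest limma adjusted p = 0.14 for each). Junb also lost its call after quantile normalization (0.076) and with the fibroblast covariate (0.062). The mouse 2 granulocyte lines were the low group here too. The mean of the list was 8.95 in mouse 1, 8.37 in mouse 2, 8.79 in B cell lines, 9.13 in fibroblast lines and 9.53 in T cell lines. Of the 5 genes, 4 had a promoter window and only Egr2 held a CArG box.

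Of 5 genes of the transient state that resembles the early cleavage embryo, 4 were called higher in mouse 1, against 4.43% of all genes. Tcstv1 was at 6.80, 5.98 and 5.48 against 3.92, 3.75 and 3.66 (2.31 ± 0.46, limma adjusted p = 0.0018). Zfp352 was at 6.09, 5.35 and 4.49 against 3.55, 3.45 and 3.46 (1.82 ± 0.42, limma adjusted p = 0.0071, and 0.056 without clone 1 of mouse 1). Clone 1 of mouse 1 was the highest and clone 3 the lowest in both genes. Usp17la (1.95 ± 0.43) and Usp17lc (1.11 ± 0.31) belong to a family of near-identical deubiquitinase genes whose probe sets may not separate the copies. The count was 2 without clone 1 of mouse 1, 5 without its clone 3, and 3 in the other 4 fits. The mean of the list was 6.07 in mouse 1 and 4.44 in mouse 2 granulocyte lines. It was 5.64 in B cell, 6.19 in fibroblast and 4.33 in T cell lines. Thus mouse 2 granulocyte and T cell lines were the low groups here.

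Signalling genes of the early embryo differed in both directions. Lefty1, a Nodal antagonist gene, was at 9.44, 9.34 and 9.46 in mouse 1 and at 7.42, 7.19 and 7.73 in mouse 2 (1.96 ± 0.50, limma adjusted p = 0.014). Its call was lost without clone 3 of mouse 1 or clone 2 of mouse 2 (largest adjusted p = 0.067, limma). The primitive streak genes Lhx1 (1.62 ± 0.36) and Mixl1 (0.89 ± 0.19) were higher, and Bmp4, a ligand gene, was lower (-1.72 ± 0.50). That made 3 higher and 1 lower of 18 genes of the primitive streak and mesoderm, against 4.43% and 3.3% of all genes, with a median of 0.07. Bmp4 was at 8.23, 7.52 and 5.82 against 9.30, 8.88 and 8.56, and of the 6 fits without a clone was called in that without clone 1 of mouse 1 only (largest adjusted p = 0.31, limma). It lost its call in 3 other alternatives too, with the compared groups alone (0.051), after quantile normalization (0.063) and with the fibroblast covariate (0.078). Lhx1 lost its call without clone 2 of mouse 1 (limma adjusted p = 0.053). Cxcl12, a chemokine gene, was higher (1.87 ± 0.28, limma adjusted p = 9.2e-05), and Ackr3, which encodes a receptor that takes up this chemokine, was lower (-1.49 ± 0.27, limma adjusted p = 0.001).

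The genes lower in mouse 1 included an export factor pair and a secreted factor. Pla2g7, which encodes a plasma enzyme that inactivates platelet-activating factor, was at 5.82, 5.51 and 6.45 in mouse 1 and at 9.04, 8.95 and 8.26 in mouse 2 (-2.83 ± 0.23, limma adjusted p = 6.3e-09). The 3 other origins of mouse 2 had means of 6.43, 6.26 and 5.81, so mouse 2 granulocyte lines alone were high at passage 4. Inhba, which encodes the activin A subunit, showed the same order, with 5.77, 5.69 and 5.48 against 7.46, 7.65 and 7.80 (-1.99 ± 0.18, limma adjusted p = 5.8e-08) and means of 5.68, 5.69 and 5.25 in the B cell, T cell and fibroblast lines. Krtdap, a gene of keratinocyte differentiation, was at 4.93, 4.87 and 4.70 against values from 7.68 to 8.02 in mouse 2 (-3.07 ± 0.41, limma adjusted p = 3.4e-05). That the values of the mice did not overlap in these 3 genes was a condition of their choice.

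Alyref2, an mRNA export factor gene, was at 8.69, 8.37 and 7.68 against 10.78, 10.92 and 11.29 (-2.75 ± 0.21, limma adjusted p = 2.4e-09). Its near-identical copy Alyref differed by -2.14 ± 0.17, and their probe sets may not separate the copies. For Alyref2 the T cell and fibroblast lines lay between the mice, with means of 9.84 and 9.79. The other genes among the 12 largest were the serpin gene Serpinb9b (-2.45 ± 0.40), the guidance gene Ntn1 (-2.36 ± 0.37), the histone chaperone gene Rbbp4 (-1.91 ± 0.51), the heat shock factor gene Hsf2 (-1.90 ± 0.26), Paip1 (-1.89 ± 0.23), which acts in translation initiation, the galactosyltransferase gene B3galt6 (-1.87 ± 0.28) and Gpbp1l1 (-1.81 ± 0.23). Rbbp4 was the only 1 of these 12 that lost its call with a clone left out, in 4 of the 6 fits (clones 2 and 3 of mouse 1, clones 1 and 3 of mouse 2, largest adjusted p = 0.09 in limma). Ntn1 has 2 probe sets, of which 1 gave this direction. The mean of the probe sets gave smaller differences that were still called for Ntn1 (-1.17), B3galt6 (-1.13) and Paip1 (-1.06).

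**Figure D4:**
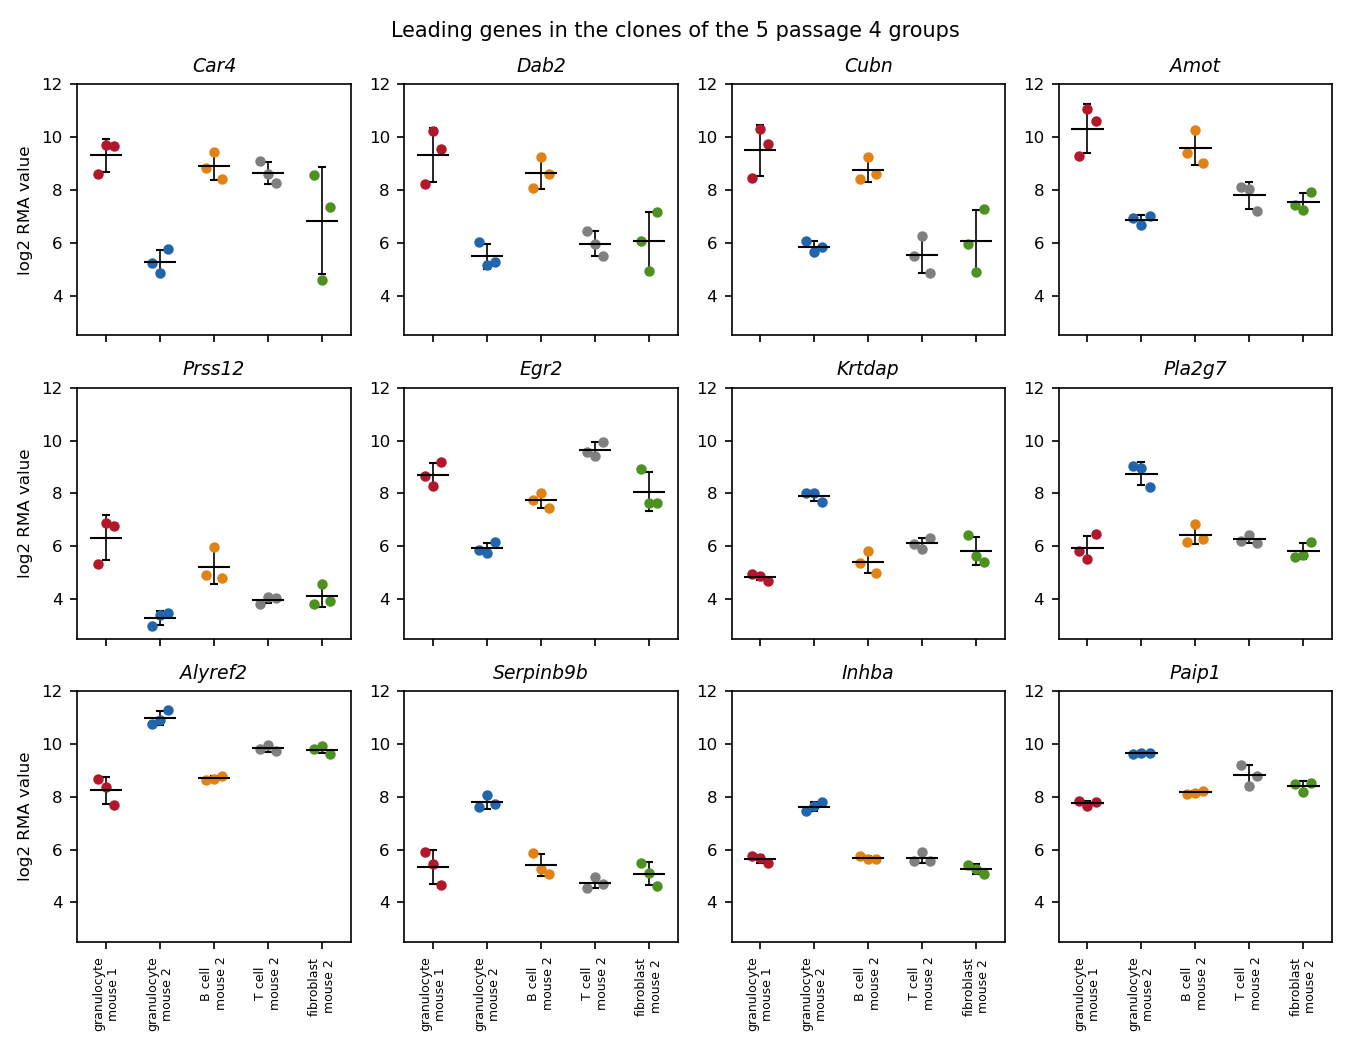
Log2 RMA values of 12 leading genes in each clone of the 5 passage 4 groups, with black lines for the group mean and bars for the SD (n = 3). Car4 lies at 8.59 to 9.69 in mouse 1 and at 4.84 to 5.75 in mouse 2 granulocyte lines, and Pla2g7 is high only in the latter among these groups.

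Markers of the fibroblast feeders pointed in both directions. Of 32 fibroblast genes, 1 was called higher in mouse 1 and 5 lower, against 4.43% and 3.3% of all genes, with a median of -0.16 (0.01 with the mean of the probe sets). The lower genes were S100a4 (-1.61 ± 0.28), the collagen genes Col6a1 (-1.45 ± 0.29) and Col6a3 (-1.43 ± 0.28), S100a6 and the protease inhibitor gene Timp1. The matrix protease gene Mmp2 was higher (1.29 ± 0.29). The mean of the list was at 7.68, 7.23 and 7.11 in mouse 1 and at 7.50, 7.43 and 7.57 in mouse 2, so it overlapped. With it as a covariate 750 genes were called between the mice, and Timp1 was not (limma adjusted p = 0.11). Among the lower genes, S100a6 kept its call in 2 and Timp1 in 1 of the 6 fits without a clone, and the other 3 in all of them. The number of lower genes ran from 3 to 6 over these fits.

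Genes of antigen presentation were called in 1 direction. Of 8 genes of MHC class I presentation, 3 were higher and 0 lower, against 4.43% and 3.3% of all genes. H2-D1, a class I heavy chain gene, was at 7.26, 7.54 and 7.44 against 6.42, 6.40 and 6.54 (0.96 ± 0.21, limma adjusted p = 0.0038), and Tapbp and Psmb10 were at 0.82 and 0.69. The count was 1 or 2 with a clone left out. It was 1 with the mean of the probe sets, where H2-D1 was at 0.36 (limma adjusted p = 0.39) and Tapbp at 0.40 (0.052), and Psmb10 lost its call after quantile normalization (0.1) and cyclic loess (0.064). Irf1, an interferon response gene, was at 8.84, 8.92 and 8.94 against values from 7.92 to 8.03 in mouse 2 (0.91 ± 0.16, limma adjusted p = 0.00057). Of 19 imprinted genes outside the Dlk1-Dio3 cluster, 4 were higher and 0 lower, against 4.43% and 3.3% of all genes. The higher genes were Peg3 (1.59 ± 0.47), Igf2 (1.18 ± 0.32), Snrpn (0.52 ± 0.16) and Usp29 (0.51 ± 0.15), while the median of the list was -0.08. With the mean of the probe sets 2 were higher, with Igf2 at 0.64. After quantile normalization 2 were higher, and Peg3 (limma adjusted p = 0.069) and Snrpn (0.059) were not called. After cyclic loess 3 were higher, and Snrpn was not called (limma adjusted p = 0.065). At most 2 of the 4 were called in any fit without a clone, and Peg3 in none of the 6 (largest adjusted p = 0.1, limma). In the Dlk1-Dio3 cluster 0 of 3 genes were called in limma, and Meg3 was at 6.98, 6.69 and 6.35 against 6.63, 7.37 and 6.66. At an unadjusted p under 0.05 the comparison as a whole had 2342 genes.

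Of the 38 lists, 23 held a called gene and 15, with 317 members, held none in limma. Over all genes, 7.73% were called and 81.7% had a 95% interval within 2-fold. Of 26 pluripotency genes, only Klf5, a transcription factor gene, was called (1.44 ± 0.39, limma adjusted p = 0.02, up to 0.12 with a clone left out and 0.051 after quantile normalization), and 22 had a 95% interval within 2-fold. Of 27 granulocyte genes 0 were called in limma, and 25 had such an interval. Their means of 4.02 and 3.99 were low, and 0 of them lay above the median gene. At such low values a narrow interval cannot show equal expression. Lyz2, the lysozyme gene, was at 0.63 ± 0.34 and Cebpa, the master regulator gene of granulocytes, at 0.59 ± 0.31 (limma adjusted p = 0.31 and 0.3). The intervals lay within 2-fold for 64 of 65 genes of cytosolic ribosomal proteins, 74 of 76 of the respiratory chain and 23 of 24 of DNA replication and mitosis, with 0 calls in each. Of 5 genes of DNA methylation 2 were called, against 7.73% of all genes. Dnmt3a, a de novo methyltransferase gene, was higher (1.40 ± 0.35, limma adjusted p = 0.012) and the maintenance methyltransferase gene Dnmt1 lower (-0.53 ± 0.13, limma adjusted p = 0.011). With a clone left out the largest adjusted p was 0.073 for Dnmt3a and 0.12 for Dnmt1.

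Genes that set granulocyte lines apart from the other origins within mouse 2 were read in mouse 1 as well. The 2 comparisons use the same 9 arrays of the other origins, so their values are given side by side and not tested for likeness. The genes were chosen as extreme in the mouse 2 granulocyte arrays, which also enter the direct difference of the mice. Values nearer the other origins in mouse 1, and calls between the mice, thus follow in part from the choice. The mean of the other origins includes the B cell lines, from which mouse 1 granulocyte lines differed in 0 called genes in limma. A value away from that mean in mouse 1 thus does not set its lines apart from B cell lines. Etv1, an ETS transcription factor gene, was above the mean of the other 3 origins by 2.63 ± 0.51 in mouse 2 granulocyte lines and by 1.76 ± 0.51 in those of mouse 1. The neuropeptide gene Trh was above it by 2.63 ± 0.41 and 1.42 ± 0.41. Serpinb9b (2.72 ± 0.33 and 0.27 ± 0.33) and Pla2g7 (2.59 ± 0.19 and -0.24 ± 0.19) were high in mouse 2 and near the other origins in mouse 1. Among genes low in mouse 2 granulocyte lines, Egr2 (-2.57 ± 0.22 and 0.22 ± 0.22) was near the mean of the other origins in mouse 1. Inca1 (-2.57 ± 0.25 and -0.95 ± 0.25), the repressor gene Bcl6 (-2.52 ± 0.27 and -0.77 ± 0.27) and Tmem191c (-2.45 ± 0.25 and -1.49 ± 0.25) were below that mean in both mice. The direct difference of the mice was called for Serpinb9b, Pla2g7, Egr2, Inca1, Bcl6 and Tmem191c and not for Etv1 (-0.87 ± 0.62, limma adjusted p = 0.49) or Trh (-1.20 ± 0.50, limma adjusted p = 0.16). Tmem191c was at the threshold (adjusted p = 0.05 to 2 digits) and was not called in any of the 6 fits without a clone (largest adjusted p = 0.22, limma). With the mean of the probe sets Bcl6 was at 1.13 in place of 1.75 and still called.

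Genes that separated the mice were often also called between origins. Of the 913, 312 (34.2%) were called between fibroblast and B cell lines, 231 (25.3%) between fibroblast and T cell lines and 240 (26.3%) between B cell and T cell lines of mouse 2. These are 14%, 15.3% and 13.4% of the calls of those pairs. The 3 pairs share no array with the comparison of the mice. They do share the fit and its 1 spread per gene, so genes of low spread are more readily called in all of them. The calls are thus not independent. In at least 1 of them 480 of the 913 were called (52.6%), against 30.6% of all genes, and 433 were called in none. The overlap was not tested.

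The genes called at passage 4 were followed to passage 16. Since they were chosen for their difference at passage 4, a smaller value at another passage follows in part from the choice and is given as a description. Their median absolute difference was 0.86 at passage 4 and 0.25 at passage 16, where that of all genes was 0.36. Without the array of low correlation it was 0.20 at passage 16, against 0.18 over all genes. Of the 913, 553 (60.6%) kept their direction, as did 58.1% of all genes. Car4 was at 7.74, 8.29 and 8.13 in mouse 1 and at 8.54, 8.01 and 7.57 in mouse 2 at passage 16, with overlap. Compared with passage 4, the mouse 2 clones were higher and those of mouse 1 lower. Egr2 was at 6.82, 6.69 and 7.34 against 7.40, 7.40 and 7.87, and Pla2g7 at 6.91, 6.64 and 6.51 against 5.97, 5.72 and 5.44. In both genes the order of the mice was the opposite of that at passage 4, without overlap. Lack of overlap was common at passage 16, with 3676 of 11807 genes. The passage 16 difference of Egr2 was -0.60 ± 0.27 (limma adjusted p = 0.095) and that of Pla2g7 was 0.98 ± 0.23 (limma adjusted p = 0.023, and 0.21 without the array of low correlation).

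The change of the mouse difference between the passages was tested directly and was called for 429 genes (3.63%), or 292 (2.47%) without the array of low correlation. Of the 913 genes, 272 had a called change, and in all 272 the passage 16 value lay below the passage 4 value when counted in the direction of passage 4. The same passage 4 arrays chose the 913 genes and enter the change, so this direction was nearly fixed by the choice. Among the 24 leading genes the change was called in 18, with passage 16 differences from -0.60 to 1.22. These 24 were chosen for the largest passage 4 differences, so this count follows in part from the choice too. Cubn changed by 3.76 (limma adjusted p = 0.021) and Egr2 by 3.39 (4.7e-06), and Pla2g7 changed by -3.80 (4.2e-08). The Dab2 change of 2.63 was not called (limma adjusted p = 0.15), but was without the array of low correlation (0.019), in which Dab2 was at 4.37 against 8.80 and 7.37 in the other mouse 2 clones of passage 16.

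The number of genes called between the mice at passage 16 rested on single arrays. It was 1939 (16.4%), of which 787 (6.67%) were higher and 1152 (9.76%) lower in mouse 1. After cyclic loess scaling the split was 675 higher and 552 lower. It was 0 in limma without clone 3 of mouse 2, the array of low correlation, with 1458 genes at an unadjusted p under 0.05. It was also 0 without clones 1 or 2 of mouse 1, and 4027 and 5201 without clones 1 and 2 of mouse 2. With only the 2 groups in the fit it was 0. Genes called at both passages numbered 92, of which 68 had the same direction and 24 the opposite one. Deptor, an mTOR inhibitor gene, was at 7.03, 6.71 and 6.93 against 5.37, 5.08 and 5.57 at passage 4, and at 6.86, 6.74 and 6.82 against 5.66, 6.31 and 4.52 at passage 16 (1.55 ± 0.36 and 1.31, limma adjusted p = 0.0081 and 0.027). Without the array of low correlation the passage 16 difference was 0.82. Tex19.1, a gene of germ cells and placenta, was lower in mouse 1 at both passages (-1.07 ± 0.26 and -0.92, limma adjusted p = 0.0092 and 0.028), and its passage 16 difference was -0.52 without that array. Since no passage 16 gene was called without it, neither gene stayed called there.

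**Figure D5:**
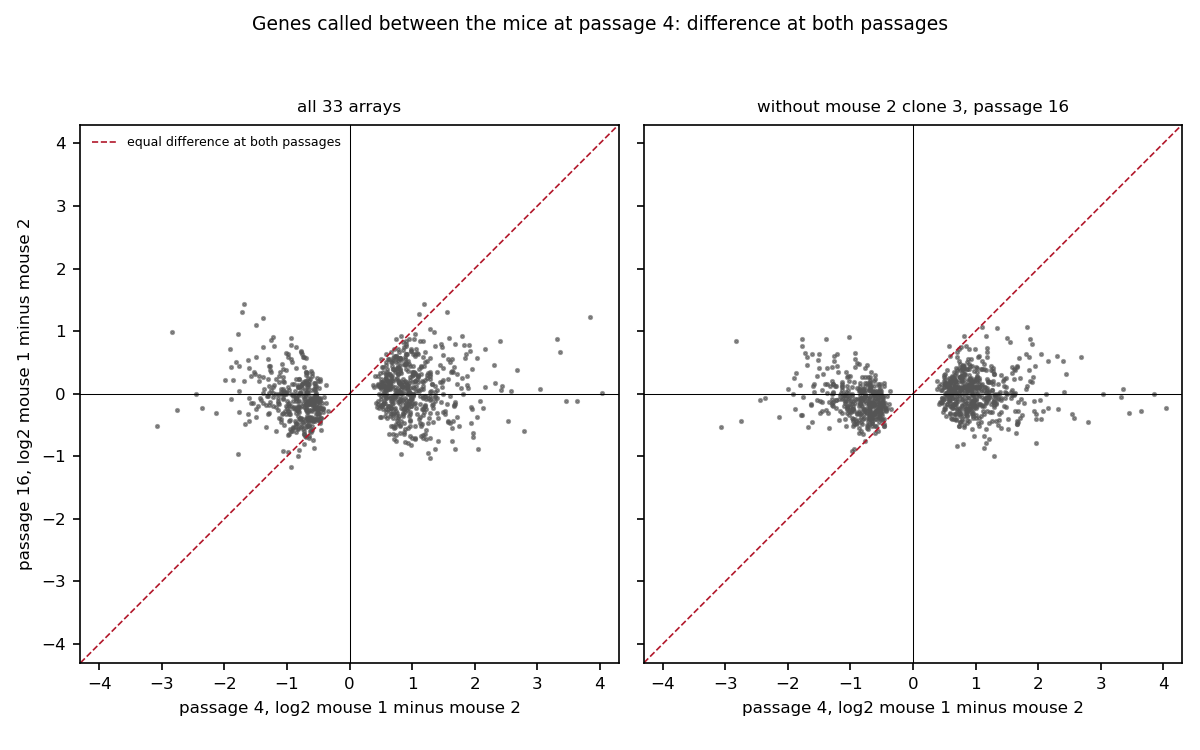
Log2 difference of mouse 1 minus mouse 2 granulocyte lines at passage 4 (horizontal) and passage 16 (vertical) for the 913 genes called at passage 4, 1 point per gene, with all 33 arrays on the left and without the array of low correlation on the right. Points lie near the horizontal line and not on the dashed line of equal differences, with median absolute values of 0.86 at passage 4, for which the genes were chosen, and 0.25 (left) or 0.20 (right) at passage 16.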

How the data were processed

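RNA of the 6 granulocyte lines was measured on expression arrays. The authors deposited log2 values made with RMA, per the submitters' processing notes, whose version is not given in the sources used here. The table of 33 arrays (11 groups of 3 clones) was used. A table of 12 passage 10 arrays, normalized separately and without mouse 1, was not used. Of 22690 probe sets, 18003 had 1 symbol, 287 several and 4400 none. Each gene was taken from its brightest probe set on average, giving 11807 genes without a filter on dim genes.

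All 33 arrays were fitted with limma 3.58.1 (R 4.3.3), 1 mean per group and 1 moderated spread per gene (22 residual degrees of freedom), p-values Benjamini-Hochberg adjusted over all genes, two-sided, called under 0.05. Errors are SE of the model. On simulated data the fit was tested for known differences. Python 3.11.15 with pandas 2.3.3 made the remaining values. Array number limits the precision.

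Named were the 12 largest called genes without overlap in each direction, up to 4 called members of a list, the 6 largest in each direction at both passages, the 4 largest changes with passage and the 4 genes in each direction that marked mouse 2 granulocyte lines. Further list members and individual genes were named after their values were seen. The arrays, lists and genes were chosen with earlier results of these data known. Clone numbers did not pair the mice. Alternatives covered scaling, arrays in the fit, probe sets, dim genes, array weights, covariates, the clone number as a block and left-out clones.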

Additional observations from a re-analysis of the deposited data

Results flagged for a closer look

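The difference between the mice at passage 4 was tested against that at passage 16, and 429 genes differed in limma (292 without the passage 16 array of mouse 2 granulocyte clone 3). Values here are the passage 4 difference minus the passage 16 difference on the log2 scale, mouse 1 minus mouse 2, for the named genes past this test. They use all 33 arrays. The genes were named for their passage 4 difference, for the change itself or as markers of mouse 2 granulocyte lines. The same passage 4 arrays enter the change, so its size follows in part from that choice. Among genes with a positive change, the largest were Car4 (4.03), Cubn (3.76), Amot (3.58), Egr2 (3.39), Prss12 (2.98), Tfec (2.97), Bcl6 (2.27) and Inca1 (2.09). Positive changes also stood in Junb (1.73), Dnmt3a (1.72), Cxcl12 (1.58), Mixl1 (1.45), Gys1 (1.32), Egr1 (1.17) and Irf1 (1.01). Among genes with a negative change, the largest were Pla2g7 (-3.80), Rad1 (-3.23), Sp3 (-3.13), Bmp4 (-3.03), Rbbp4 (-2.63), Krtdap (-2.56), Alyref2 (-2.49) and Serpinb9b (-2.44). Negative changes also stood in Hsf2 (-2.32), Gpbp1l1 (-2.31), Inhba (-2.21), Ntn1 (-2.13), B3galt6 (-2.09), S100a4 (-2.03), Alyref (-1.83) and Paip1 (-1.82). Smaller negative ones were those of Col6a1 (-1.65) and Plk2 (-1.42). Rad1, a gene of the DNA damage checkpoint, was not called at passage 4 itself (-1.38, limma adjusted p = 0.16), and in mouse 2 at passage 16 it was at 8.27, 8.58 and 4.60, with the low value in clone 3. Without that array its change was still called (limma adjusted p = 0.012). Other passage 16 differences moved too when it was left out. They went from 1.44 to 0.59 in Sp3, 1.31 to 0.65 in Bmp4, 0.72 to -0.01 in Rbbp4 and -0.79 to -0.30 in Junb, which made these changes smaller. In Car4 (0.01 to -0.22) and Cubn (-0.12 to -0.27) the change became larger. Of all named genes 33 had a called change, and 32 without that array.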

How the results depend on the processing

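Of the 85 named genes called between the mice at passage 4, 39 were called under every alternative in which they were tested, leaving aside the 2 chosen after seeing the data, and 30 when these are included. With the endoderm covariate 45 of the 85 lost the call. None (0) of the 85 changed direction. Quantile normalization and cyclic loess gave 1250 and 1227 calls at passage 16, where the median of all genes moved from -0.14 to -0.04 and 0.00, so passage 16 differences are read against that median. With only the compared groups in the fit the calls were 2151 for the mice at passage 4, 0 at passage 16, 102 for the change with passage, 558 for fibroblast against T cell lines and 2263 for B cell against granulocyte lines. Without the array of lowest correlation they were 1466 for the mice at passage 4, 0 at passage 16 and 1585 for B cell against granulocyte lines. Genes above the median level gave 1130 at passage 16. Array weights gave 3726 for the mice at passage 4, 3268 at passage 16, 2935 for the change, 4092 for B cell against T cell, 3684 for B cell against granulocyte, 5182 for T cell against granulocyte, and for mouse 1 granulocyte lines 7 against B cell and 4761 against T cell lines. The fibroblast covariate gave 255 for the change, 347 for fibroblast against T cell, 311 for B cell against T cell, 482 for B cell against granulocyte and 1105 for mouse 1 granulocyte against T cell lines. The endoderm covariate, chosen after seeing the data, gave 395 for the mice at passage 4. That covariate does not overlap between the mice and so stands in for the mouse, which lowers the count by construction. Leaving out mouse 1 clone 1 together with the array of lowest correlation gave 1236. The cause of the other moves was not tested.

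With 1 clone left out, the calls ran from 436 to 707 for the mice at passage 4, 0 to 5201 at passage 16, 147 to 1849 for the change, 539 to 741 for B cell against granulocyte, 1086 to 1642 for B cell against T cell, 1360 to 2157 for fibroblast against B cell, 729 to 1556 for fibroblast against T cell, 1995 to 2673 for fibroblast against granulocyte and 2358 to 2759 for T cell against granulocyte lines. For mouse 1 granulocyte lines they ran from 1553 to 2112 against T cell, 1840 to 2699 against fibroblast and 0 to 0 against B cell lines. The separation of the mice stayed between 0.0097 and 0.0122, and was 0.0334 over genes above the median level.

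The share of higher calls moved by over 10 points in 4 other comparisons. After quantile normalization it was 41.9% for B cell against T cell (31.7% before), 51.5% for fibroblast against granulocyte (63.4%), 51.8% for T cell against granulocyte (63.9%) and 46% for mouse 1 granulocyte against T cell lines (35.1%).

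Some uncalled genes changed sign. Nanog was at 0.01 after quantile normalization, 0.05 without mouse 1 clone 1 and the array of lowest correlation, and -0.10 to 0.05 with a clone left out. Klf4 was at -0.00 after quantile normalization, -0.01 with the mean of probe sets or array weights, -0.06 with the endoderm covariate and -0.04 to 0.06 with a clone left out. Rian was at 0.08 with the mean of probe sets and -0.53 to 0.33 with a clone left out. With the endoderm covariate Meg3 was at 0.26, Eif2s3y at 0.95 and Kdm5d at 0.07, and with a clone left out Meg3 ran from -0.36 to 0.03 and Eif2s3y from -2.26 to 0.27.

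The clone number as a replicate block gave 943 calls for the mice at passage 4. Same-numbered clones of the mice did not deviate together (r of 0.06, -0.24 and -0.02 over 2000 genes), and they come from separate mice, so the numbers pair nothing. The block changed no count by over 1.5 times. Between passages 4 and 16, same-numbered lines correlated by 0.38, 0.20 and 0.17 in mouse 1 and by 0.24, 0.20 and 0.31 in mouse 2, and the line as a random replicate block gave 429 calls for the change.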

Other observations

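Medians over whole chromosomes were taken as a description, which cannot show a difference limited to part of a chromosome. Over the 19 autosomes and the X chromosome, with 291 to 993 genes each, the median log2 difference at passage 4 lay between -0.05 and 0.01, and the share of genes called between 5.97% and 9.35%. Single clones set against the other mouse gave medians from -0.06 to 0.07 on these chromosomes. On the Y chromosome the median over 11 genes was -0.10, and 0 were called in limma.

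Eif2s3y, on the Y chromosome, differed between clones of 1 group more than between groups. At passage 4 it was at 8.02, 2.96 and 7.86 in clones 1, 2 and 3 of mouse 1 and at 7.34, 7.57 and 8.10 in those of mouse 2. At passage 16 it was at 7.05, 4.32 and 7.36 in mouse 1, so clone 2 was the lowest of mouse 1 at both passages, and at 5.93, 7.97 and 3.47 in mouse 2. Muscle precursor lines of mouse 1 at passage 6 were at 10.79, 10.52 and 10.77. The Y-linked genes Kdm5d and Uty lay between 3.36 and 4.35 in all 6 passage 4 granulocyte arrays, near the bottom of the scale, and showed no such contrast.

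Gys1, the glycogen synthase gene of muscle, was higher in mouse 1 (0.81 ± 0.18, limma adjusted p = 0.0062), and it was 1 of 2 genes called among 28 of hypoxia and glycolysis (7.14%), a share near the 7.73% of all genes. Of 13 genes of cholesterol synthesis 2 were higher (15.4%), with Fdft1, which encodes squalene synthase, at 0.69 ± 0.15 (limma adjusted p = 0.0043), and 12 of the 13 differences were above 0. Taf7l, a testis transcription factor gene, was at 5.21, 4.88 and 5.12 in mouse 1 and at 6.73, 6.71 and 6.77 in mouse 2 (-1.67 ± 0.29, limma adjusted p = 0.00061), and at passage 16 its difference was -0.49 and not called.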
